A study of Mus musculus with 6 samples.

Results

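A set of 10 secreted or membrane-bound factors that act on melanocytes were followed in back epidermis of mice with and without Spry1 in keratinocytes: Kitl, Edn1, Edn2, Edn3, Asip, Pomc, Hgf, Nrg1, Cxcl12 and Dkk1. They are 10 of the 54532 genes of the deposited expression table and were chosen by name. Symbols matched 9 of them, and Asip was found under its older mouse symbol a. The Spry1_KO group (3 samples) carried Spry1flox/flox with K14-Cre-ERT2, a tamoxifen-activated Cre recombinase under the keratin 14 promoter of basal keratinocytes. The Control group (3 samples) carried Spry1flox/flox without Cre. Both genotypes were gavaged with tamoxifen (0.1 mg for each g of weight) 4 times weekly for 4 weeks. No group had Cre without the floxed allele, so Cre activity and loss of Spry1 cannot be told apart. Age, sex and coat colour are not given in the labels, which also do not say that each sample is 1 animal, so p-values measure the spread between these samples, which may be technical.

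Pigment cells depend on signals from their neighbours. Stem cell factor, the product of Kitl, is made by keratinocytes and binds the receptor tyrosine kinase Kit on melanocytes, and mice that express it from the keratin 14 promoter keep melanocytes in the epidermis, where trunk skin otherwise holds few outside the hair follicles. Endothelins act through Ednrb, and melanocortins cut from the Pomc product act through Mc1r, which the agouti protein (Asip) blocks. Spry1, the deleted gene, encodes Sprouty1, which dampens ERK signalling downstream of such kinases.

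Kitl, Nrg1 and Hgf transcripts were higher and Cxcl12 and Edn1 transcripts lower in Spry1_KO epidermis, while Edn2 values overlapped between the genotypes. Edn3, Asip, Pomc and Dkk1 were at or near the detection limit in both genotypes. Levels are FPKM, fragment counts scaled by exon length and by a total for each library. That total was a smaller share of the recovered reads in every Spry1_KO sample than in any Control sample. The values of all 10 factors were whole multiples of 1 read to within 0.01 read, so the read numbers behind each FPKM are given beside it. Libraries held 18670243 to 21024715 recovered reads in Spry1_KO and 18383323 to 18949497 in Control. A gene was tested with limma on log2(FPKM + 1) if its mean was at least 1 FPKM, which only Kitl, Edn1 and Cxcl12 reached. Of these 3, 1 rose and 2 fell at a Benjamini-Hochberg adjusted p under 0.05, where 54% of all 12629 tested genes passed (3736 higher, 3079 lower). With each sample scaled to the same FPKM sum the split of all genes was 2057 higher and 4455 lower, the median log2 fold change of all genes was -0.20 in place of 0.03, and the 3 calls held. A second test, limma-voom on the recovered reads of genes with a mean of at least 10 reads, held 6 of the factors: 3 rose and 2 fell, where 53.4% of 15481 genes passed. A share of that size means that a call alone does not set these factors apart from other genes.

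Sequences just around the start sites are shown for Kitl and Cxcl12, the 2 factors with the lowest limma p, which moved in opposite directions. Each window runs from 250 bases before to 50 bases after the RefSeq start (GRCm38.p6), 5′ to 3′ on the plus strand, at chr10:100015571-100015870 for Kitl and chr6:117168285-117168584 for Cxcl12. Capitals mark matches on either strand to AP-1 (TGANTCA), the ETS core (CCGGAA), the core of the cAMP response element (TGACG), the GC box (GGGCGG) and the TATA box (TATAAA).
Kitl: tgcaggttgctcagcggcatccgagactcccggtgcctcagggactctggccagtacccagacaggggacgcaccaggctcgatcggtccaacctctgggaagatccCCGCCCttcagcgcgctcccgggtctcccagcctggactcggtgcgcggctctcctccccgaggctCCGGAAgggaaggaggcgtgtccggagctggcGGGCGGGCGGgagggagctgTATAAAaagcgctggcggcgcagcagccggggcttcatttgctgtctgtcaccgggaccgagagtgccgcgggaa
Cxcl12: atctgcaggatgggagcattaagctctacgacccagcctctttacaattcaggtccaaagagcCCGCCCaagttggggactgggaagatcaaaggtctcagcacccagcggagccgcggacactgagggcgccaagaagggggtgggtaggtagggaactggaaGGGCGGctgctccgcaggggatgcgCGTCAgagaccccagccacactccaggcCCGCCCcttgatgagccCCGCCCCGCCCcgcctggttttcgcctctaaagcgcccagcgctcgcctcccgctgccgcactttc
The Kitl window held 1 ETS core, with its first base at -77 from the start, 1 TATA box at -25 and 3 GC boxes at -143, -45 and -41, of which the last pair overlap each other. The Cxcl12 window held 5 GC boxes, of which those at -16 and -11 overlap, and 1 cAMP response core at -61, and no TATA box or ETS core. Neither held an AP-1 site. Of 32851 promoter windows of this length, 7.81% held an AP-1 site, 14.9% an ETS core, 20.8% a cAMP response core, 35.7% a GC box and 13.6% a TATA box. G and C made up 68.7% of the Kitl window and 64.7% of the Cxcl12 window. Windows for 9 of the 10 factors were in the table, and Nrg1 had none.

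Kitl encodes stem cell factor, the survival and migration signal of melanocytes that express Kit. The gene (ENSMUSG00000019966) lies on chromosome 10 from 100015630 to 100100416 in GRCm38. That first base is from GENCODE M21 and lies inside the window above, upstream of the RefSeq start. The motif positions of Kitl count from the RefSeq start. Kitl measured 3.41, 4.56 and 3.98 FPKM in the Spry1_KO samples, from 405, 468 and 387 reads, against 1.43, 0.971 and 1.34 FPKM in the Control samples, from 154, 105 and 154 reads. All Spry1_KO samples were above all Control samples. The means were 3.98 ± 0.576 FPKM in Spry1_KO and 1.25 ± 0.242 FPKM in Control (SD, n = 3 each), a ratio of 3.20. On the log2(FPKM + 1) scale the difference was 1.15 ± 0.13 (SE; adjusted p 0.000569 in limma), and on recovered reads the log2 fold change was 1.66 ± 0.20 (adjusted p 0.000332 in limma-voom). Of all tested genes, 6.5% had a larger log2 fold change. Between the genotypes, a bulk sample cannot tell more cells that express Kitl from more Kitl RNA per cell, and the same holds for each gene below.

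**Figure D1:**
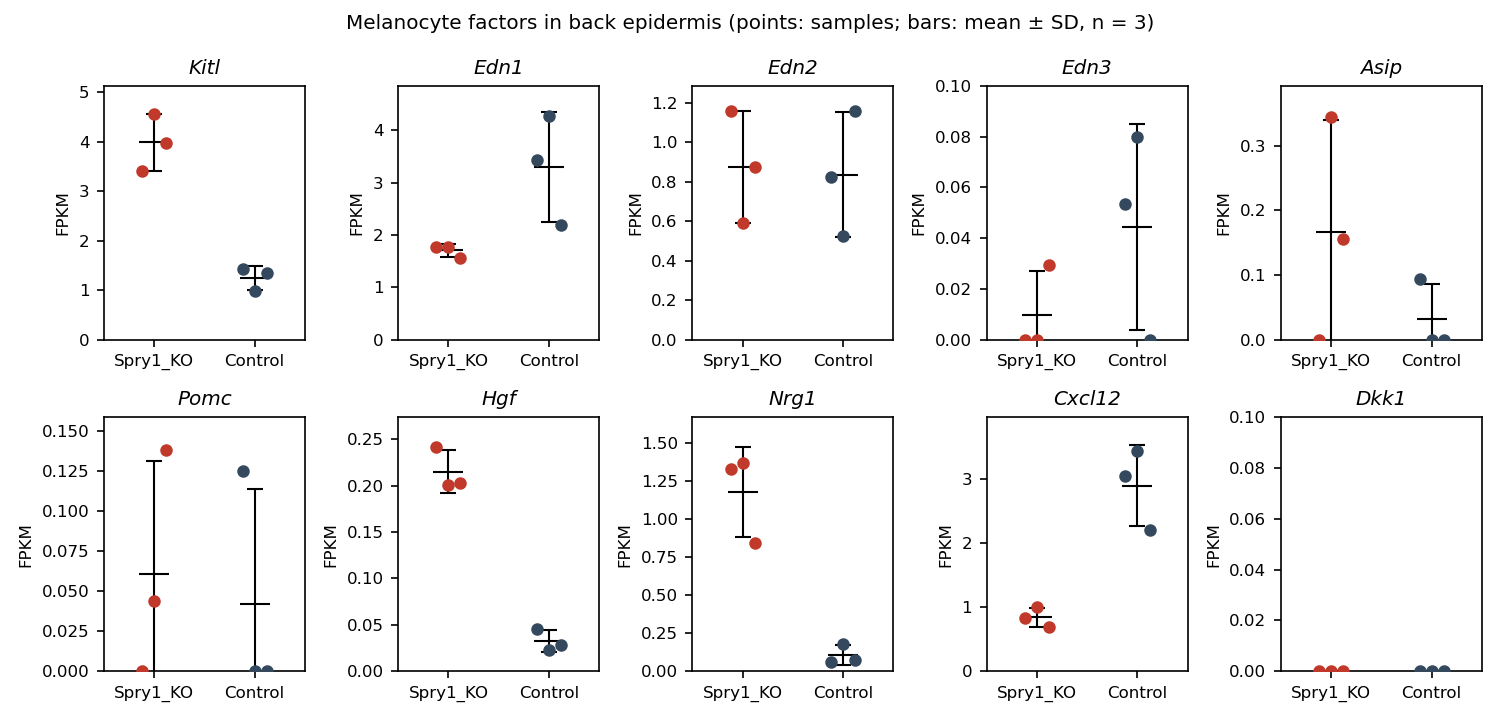
FPKM of the 10 factors in each sample (points), with the mean and SD of 3 samples (bars, not drawn below 0), on a linear axis from 0 that differs between panels. Kitl, Nrg1 and Hgf points of Spry1_KO lie above every Control point, Edn1 and Cxcl12 points lie below, and Edn2 points overlap.

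By a rule based on likeness of profile, the 5 named genes nearest to Kitl over the 6 samples were Tmem200b, Cenpq, Rcc1, Pno1 and Rbm3. Their root mean square distance from Kitl, after each gene was centred on its own mean on the log2(FPKM + 1) scale, ran from 0.0569 (Tmem200b) to 0.0856 (Rbm3). Cenpq, which encodes a centromere protein, measured 4.99, 6.79 and 5.93 FPKM in Spry1_KO and 2.23, 1.83 and 2.62 FPKM in Control. Rbm3, a cold-inducible RNA-binding protein gene, measured 139, 180 and 171 FPKM in Spry1_KO and 67.8, 62.2 and 72.7 FPKM in Control. Both profiles share the step between genotypes and the high value in Spry1_KO replicate 2 with Kitl, which follows from how they were picked.

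Nrg1 encodes neuregulin 1, a ligand of the ERBB receptors that in human skin is a fibroblast-derived stimulus of pigmentation. It lies on chromosome 8 from 31814551 to 32884029. Nrg1 measured 1.33, 1.37 and 0.840 FPKM in Spry1_KO, from 276, 246 and 143 reads, and 0.0583, 0.180 and 0.0743 FPKM in Control, from 11, 34 and 15 reads. Spry1_KO and Control samples did not overlap, and the lowest Spry1_KO value came from 143 reads. Its mean of 0.641 FPKM kept it out of the limma test on FPKM. An exact two-sided permutation test over the 6 samples gave p = 0.1, the smallest that 3 against 3 allows. On recovered reads the log2 fold change was 3.61 ± 0.46 (SE; adjusted p 0.000419 in limma-voom). Gm26578, on the opposite strand, shares 482 of the 10351 exon bases of Nrg1 and held 0 to 6 reads per sample.

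Hgf encodes hepatocyte growth factor, a mitogen for melanocytes through Met. It measured 0.242, 0.200 and 0.203 FPKM in Spry1_KO, from 35, 25 and 24 reads, and 0.0458, 0.0228 and 0.0286 FPKM in Control, from 6, 3 and 4 reads. The groups did not overlap, but the Control values stand on 13 reads in all. Hgf differed by 2.64 ± 0.43 (SE) in log2 recovered reads (adjusted p 0.00133 in limma-voom), and the exact permutation p was 0.1. Gm43489, an unnamed locus on the same strand, shares 484 of the 7186 exon bases of Hgf and held 0 to 2 reads per sample.

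Cxcl12 encodes a chemokine that draws Cxcr4-bearing melanocyte precursors through mouse skin. The gene lies on chromosome 6 from 117168535 to 117181367. Cxcl12 measured 0.834, 0.994 and 0.691 FPKM in Spry1_KO, from 137, 141 and 93 reads, and 3.05, 3.43 and 2.20 FPKM in Control, from 455, 513 and 350 reads. Every Spry1_KO sample lay below every Control sample. Its log2 fold change was -1.07 ± 0.15 (SE; adjusted p 0.00134 in limma), and -1.78 ± 0.24 on recovered reads (adjusted p 0.000497 in limma-voom). Of all tested genes, 7.46% had a lower log2 fold change.

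Endothelins are short peptides cut from larger precursors, and endothelin 1 from keratinocytes stimulates melanocytes. Edn1 (chromosome 13, 42301476 to 42307990) measured 1.77, 1.78 and 1.56 FPKM in Spry1_KO, from 76, 66 and 55 reads, and 3.44, 4.27 and 2.18 FPKM in Control, from 134, 167 and 91 reads. The groups did not overlap, with Control replicate 3 nearest to the Spry1_KO samples. The log2 fold change of Edn1 was -0.64 ± 0.19 (SE; adjusted p 0.0252 in limma), and -0.90 ± 0.29 on recovered reads (adjusted p 0.0293 in limma-voom). On the log2(FPKM + 1) scale, 15.1% of all tested genes had a lower log2 fold change. The call was lost in limma when any 1 sample other than Control replicate 3 was left out (adjusted p 0.0585 to 0.0770), and without Control replicate 2 the log2 fold change was -0.48.

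Edn2 measured 1.16, 0.591 and 0.873 FPKM in Spry1_KO, from 34, 15 and 21 reads, and 0.826, 0.524 and 1.16 FPKM in Control, from 22, 14 and 33 reads. The groups overlapped over nearly their whole range, and the log2 fold change on recovered reads was 0.08 ± 0.42 (SE; adjusted p 0.887 in limma-voom). With so few reads a moderate difference in Edn2 was not detectable. Edn3, the endothelin that drives expansion of melanocyte precursors in mouse embryos, had 0, 0 and 2 reads in Spry1_KO and 4, 6 and 0 reads in Control. These overlap and correspond to at most 0.0798 FPKM in any sample.

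The melanocortin pair was barely detected. Pomc, whose product is cut to the hormone that switches on Mc1r, had 0, 1 and 3 reads in Spry1_KO and 3, 0 and 0 reads in Control. Asip, whose product blocks that receptor, had 0, 7 and 3 reads in Spry1_KO and 2, 0 and 0 reads in Control, or at most 0.345 FPKM. The groups overlap for both genes (exact permutation p of 0.7 for Pomc and 0.4 for Asip). Asip shares 147 of its 1169 exon bases with Raly on the same strand, which held 2985 to 3815 reads in Spry1_KO and 2262 to 3143 reads in Control, and the part of Raly in the Asip reads was not tested. Dkk1, a secreted Wnt inhibitor that in human palms and soles lowers pigmentation, had no read in any sample, which allows up to 3 reads, or 0.0615 to 0.0751 FPKM, per library (counting error only).

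The groups did not overlap for 5 of the 10 factors, 3 of them higher and 2 lower in Spry1_KO, beside 64.2% of all 12629 tested genes. All 3 tested factors were among the 5, and the 7 factors under the filter lie outside that share. Levels can be set in order of FPKM within a genotype. The length used is that of all exon bases of a gene, 10351 for Nrg1 with 18 transcripts and 2139 for Edn1 with 1. Genes with several transcripts can thus be understated. The order, shares and ratios below are of FPKM and may differ from those of transcript numbers. In Spry1_KO the order of mean FPKM was Kitl (3.98), Edn1 (1.70), Nrg1 (1.18), Edn2 (0.874) and Cxcl12 (0.840), then Hgf (0.215). Nrg1 and Edn2 overlapped in that order, as did Edn2 and Cxcl12. In Control it was Edn1 (3.30), Cxcl12 (2.89), Kitl (1.25), Edn2 (0.836) and Nrg1 (0.104). There the ranges of Edn1 and Cxcl12 overlapped, as did those of Kitl and Edn2.

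The sum of the 10 factors was 9.03 ± 0.750 FPKM in Spry1_KO and 8.53 ± 1.35 FPKM in Control (SD, n = 3 each), ranges that overlap, while its make-up differed. Kitl made up 39.0%, 46.2% and 47.0% of that sum in Spry1_KO, against 15.7%, 10.2% and 19.2% in Control. Nrg1 made up 9.91% to 15.2% in Spry1_KO and 0.639% to 1.90% in Control. Cxcl12 held 8.16% to 10.1% in Spry1_KO and 31.5% to 36.2% in Control. Edn2 had 5.98% to 13.2% in Spry1_KO and 5.53% to 16.6% in Control.
These shares, like ratios within a library, do not depend on the scaling between samples. The ratio of Kitl to Edn1 in FPKM was 1.93, 2.57 and 2.55 in Spry1_KO and 0.416, 0.228 and 0.612 in Control. Kitl to Cxcl12 stood at 4.09, 4.59 and 5.76 in Spry1_KO and 0.468, 0.283 and 0.609 in Control. In every Spry1_KO sample Kitl exceeded both genes, and in every Control sample it was below both (exact permutation p of 0.1 for each ratio).

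**Figure D2:**
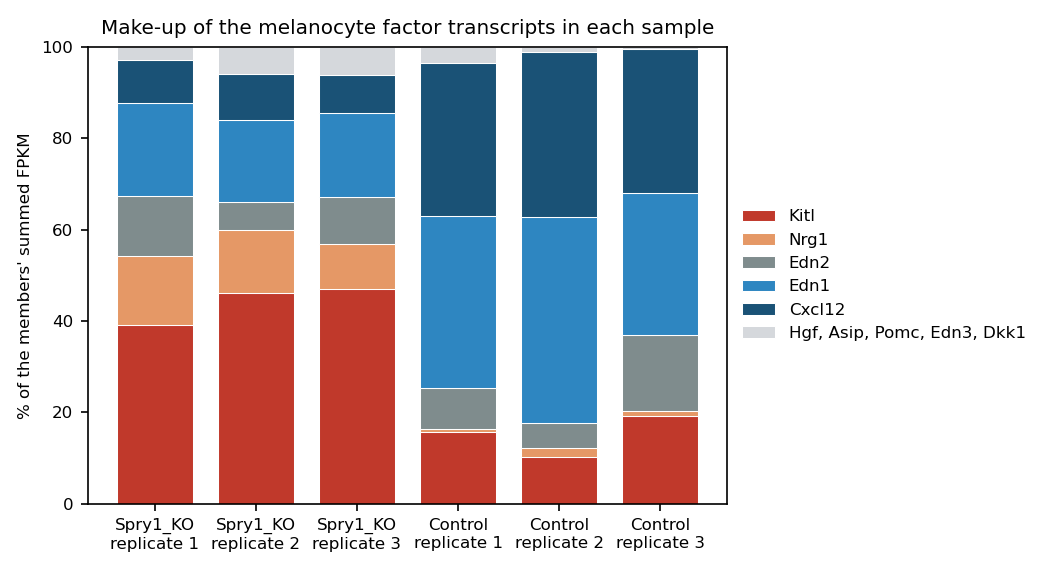
Share of each factor in the summed FPKM of the 10 factors, one stacked bar per sample, Spry1_KO bars left of Control bars. Kitl takes up 39.0% to 47.0% of the Spry1_KO bars and 10.2% to 19.2% of the Control bars, and Cxcl12 8.16% to 10.1% of the Spry1_KO bars and 31.5% to 36.2% of the Control bars.

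Receptors of the factors moved in both directions. Of 14 listed, 12 passed the filter, and 3 rose and 5 fell in limma, where 54% of all tested genes were called. Their median log2 fold change was -0.18, against 0.03 for all tested genes. Receptors of the melanocyte itself were among those that rose. Kit, the stem cell factor receptor, measured 3.70, 2.77 and 3.33 FPKM in Spry1_KO and 0.382, 0.497 and 0.587 FPKM in Control, a log2 fold change of 1.52 ± 0.13 (SE; adjusted p 0.000171 in limma). Ednrb, the endothelin receptor of melanocytes, measured 3.01, 2.89 and 2.94 FPKM in Spry1_KO and 0.334, 0.320 and 0.144 FPKM in Control (log2 fold change 1.64, adjusted p 9.54e-05 in limma). Ednra, the endothelin receptor best known from vascular smooth muscle, measured 5.75, 4.07 and 4.96 FPKM in Spry1_KO and 0.581, 0.589 and 0.262 FPKM in Control (adjusted p 0.000116 in limma; log2 fold change on recovered reads 3.43). Mc1r lay under the filter, with 39, 42 and 24 reads in Spry1_KO and 1, 2 and 2 reads in Control, and passed in limma-voom (adjusted p 0.000504). None of these 4 receptors overlapped between the groups, nor did 64.2% of all 12629 tested genes, which leave out Mc1r.

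Receptors of Hgf and neuregulin went the other way from their ligands or did not pass. Met, the Hgf receptor, averaged 5.96 ± 0.452 FPKM in Spry1_KO and 8.61 ± 0.482 FPKM in Control (SD, n = 3 each; log2 fold change -0.47, adjusted p 0.00396 in limma). Erbb2, the shared partner of neuregulin receptors, averaged 29.4 ± 1.71 FPKM in Spry1_KO and 42.3 ± 4.56 FPKM in Control (limma adjusted p of 0.00507). Erbb3, which binds neuregulin 1, averaged 29.1 ± 4.99 FPKM in Spry1_KO and 33.7 ± 3.18 FPKM in Control without passing (adjusted p 0.229 in limma). Erbb4, the other neuregulin receptor, had 0 reads in every Spry1_KO sample and 1, 0 and 2 reads in Control.

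Both Cxcl12 receptors were measured. Ackr3, a scavenging receptor that takes up Cxcl12, measured 5.65, 3.94 and 8.04 FPKM in Spry1_KO and 15.4, 28.2 and 21.1 FPKM in Control (log2 fold change -1.72 ± 0.27, SE; adjusted p 0.0021 in limma). Cxcr4, the signalling receptor, measured 2.86, 2.17 and 3.60 FPKM in Spry1_KO and 0.607, 2.36 and 0.0851 FPKM in Control. Control replicate 2 overlapped the Spry1_KO samples, and Cxcr4 missed the threshold (adjusted p 0.0538 in limma), though it passed without that sample (0.00412) and in limma-voom (0.0355). The Wnt co-receptors Lrp5 and Lrp6 did not pass (limma adjusted p of 0.792 and 0.164), and Lrp6 passed with each sample scaled to the same FPKM sum (0.029). Kremen1 and Kremen2, which bind Dkk1 together with Lrp6, fell by 0.68 and 0.73 on the log2 scale (limma adjusted p of 0.000675 and 0.00434).

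**Figure D3:**
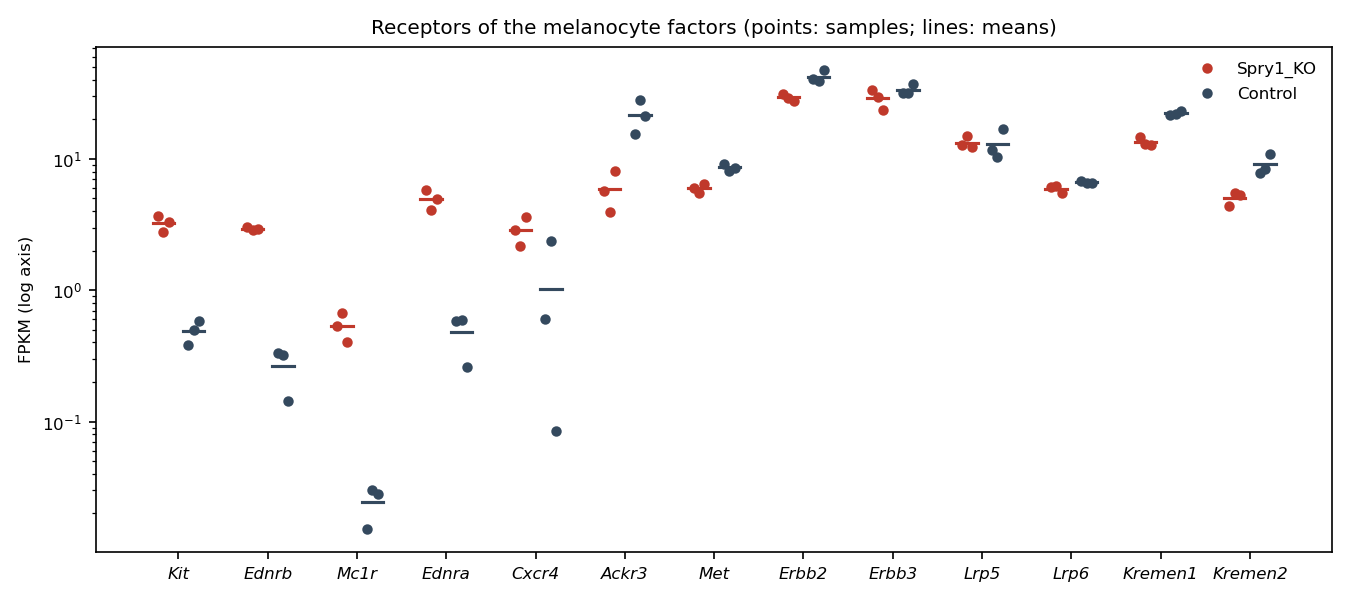
FPKM of 13 receptors in each sample (points) with group means (lines) on a log axis, Spry1_KO left of Control for each gene. Kit, Ednrb, Mc1r and Ednra lie higher in Spry1_KO without overlap, and Ackr3, Met, Erbb2, Lrp6, Kremen1 and Kremen2 lie lower without overlap. Of all tested genes, 64.2% did not overlap. Erbb4, with values of 0, is not drawn.

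**Figure D4:**
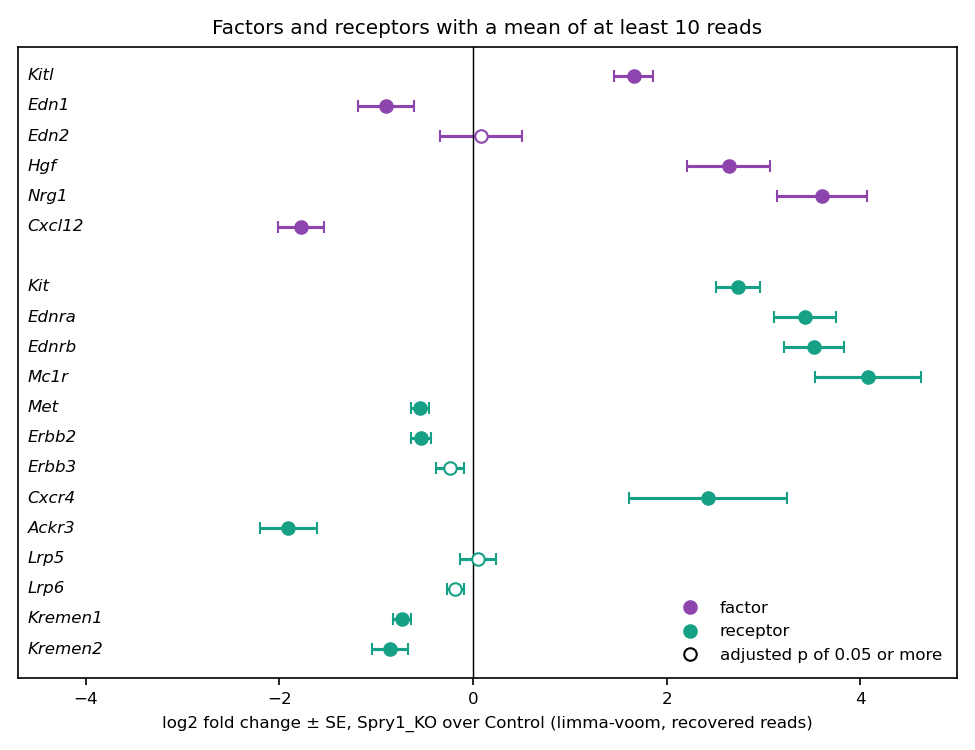
Log2 fold change and SE from limma-voom on recovered reads for the 6 factors and 13 receptors with a mean of at least 10 reads, Spry1_KO over Control. Filled points passed an adjusted p of 0.05; Edn2, Erbb3, Lrp5 and Lrp6 did not.

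Proteins that cut, activate or gate the factors moved both ways. Of 18 listed, 13 were tested, 4 rose and 4 fell in limma (median log2 fold change 0.01), where 54% of all tested genes were called. The split was 1 higher and 6 lower with each sample scaled to the same FPKM sum, and 2 higher and 6 lower with scaling to recovered reads. Mmp9, a protease that releases soluble Kit ligand in mouse bone marrow, measured 1.20, 0.537 and 1.17 FPKM in Spry1_KO and 14, 18.0 and 11.5 FPKM in Control (log2 fold change -2.97 ± 0.20, SE; adjusted p 7.67e-05 in limma). Furin, a proprotein convertase, measured 18.9, 18.1 and 20.7 FPKM in Spry1_KO and 7.46, 9.22 and 8.78 FPKM in Control (log2 fold change 1.09). Plau, a serine protease that can activate Hgf, rose by 0.45, and Spint2, an inhibitor of Hgf activation, fell by 0.37 on the log2 scale. Plau did not pass with each sample scaled to the same FPKM sum (limma adjusted p of 0.249), and Spint2 did not pass without Spry1_KO replicate 2 (0.0582). The endothelin-converting enzyme gene Ece1 did not pass (limma adjusted p of 0.136), and Pcsk1 and Pcsk2, which cut the Pomc product, reached at most 0.108 FPKM in any sample.

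Among 16 other secreted factors that act on melanocytes, 8 were tested, 4 rose and 4 fell (median log2 fold change -0.26), beside the same 54% over all tested genes. Wif1, a secreted Wnt inhibitor, measured 5.97, 3.73 and 4.88 FPKM in Spry1_KO and 0.859, 1.19 and 1.86 FPKM in Control (log2 fold change 1.35). Wnt10b, a Wnt ligand of hair follicles, measured 0.673, 0.474 and 0.483 FPKM in Spry1_KO and 5.31, 6.09 and 8.06 FPKM in Control (log2 fold change -2.26). Bmp4 stood at 0.332, 0.256 and 0.568 FPKM in Spry1_KO and 13.3, 20.2 and 37.8 FPKM in Control. The limma adjusted p of these 3 genes was 0.00167 or less.

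Marker genes of cell types that make or receive the factors were read beside the same share of calls over all genes. Of 12 melanocyte markers, 10 were tested, 9 rose and 1 did not pass, and the summed level of the list was 224 to 229 FPKM in Spry1_KO and 11.7 to 15.2 FPKM in Control. Pmel, Mlana, Tyrp1 and Dct, genes of pigment synthesis and melanosomes, had the lowest p, with log2 fold changes of 3.68, 4.60, 4.42 and 3.56. The marker that did not pass was Mitf, the melanocyte master regulator (adjusted p 0.343 in limma). Of 9 mast cell markers, cells that also carry Kit, 2 were tested; Hdc rose and Mrgprb2 fell, and the sums were 3.94 to 9.95 FPKM in Spry1_KO and 5.23 to 9.18 FPKM in Control. Mrgprb2 was at 0 in every Spry1_KO sample and made up most of each Control sum (8.77, 7.06 and 4.37 FPKM). Fcer1a and Ms4a2 were at 0 in every Control sample, and Tpsab1 was at 0 in all 6. Under the filter, Cpa3 was at 0.304 to 1.32 FPKM in Spry1_KO and at most 0.0721 FPKM in Control. Cma1 was at 0.502 to 1.51 FPKM in Spry1_KO and at most 0.282 FPKM in Control. Neither overlapped, beside 64.2% of all tested genes, while Mcpt4 and Tpsb2 overlapped. Fibroblast markers, a usual source of Hgf, Cxcl12 and Nrg1, summed to 24.2 to 27.6 FPKM in Spry1_KO and 9.62 to 18.3 FPKM in Control, of which Fbln1 alone had 20.8 to 22.2 FPKM in Spry1_KO and 1.96 to 2.45 FPKM in Control. Of 6 tested fibroblast markers Fbln1 rose, and Dpt, Col1a2 and Col3a1 fell. The calls of Col1a2 and Col3a1 were lost without Control replicate 3 and Spry1_KO replicate 2 together (adjusted p 0.0618 and 0.108 in limma), and each was also lost without Spry1_KO replicate 1 (0.0545 and 0.0704). Dermal papilla markers summed to 1.14 to 1.44 FPKM in Spry1_KO and 3.82 to 5.64 FPKM in Control, and of 2 tested Rspo3 fell. No endothelial marker reached the filter (sums of 0.923 to 1.41 FPKM in Spry1_KO and 0.617 to 3.99 FPKM in Control), and Pecam1 and Cdh5 reached at most 1.84 FPKM; the 5 held by limma-voom had adjusted p of 0.340 or more.
All 5 tested muscle markers fell, with sums of 0.990 to 2.15 FPKM in Spry1_KO and 13.2 to 55.1 FPKM in Control. Of 3 tested Schwann cell markers, Ngfr and Mbp fell (sums of 8.53 to 21.7 FPKM in Spry1_KO and 19.8 to 33.9 FPKM in Control), while S100b, under the filter, rose in limma-voom (adjusted p 0.00914). The Mbp call was lost without Control replicate 3 and Spry1_KO replicate 2 together (adjusted p 0.117 in limma). Of 5 tested macrophage and leukocyte markers, Lyz2 rose and Csf1r, Adgre1 and Ptprc fell (sums of 39.1 to 62.1 FPKM in Spry1_KO and 35.2 to 49.2 FPKM in Control), and the Ptprc call was lost without Spry1_KO replicate 2 (adjusted p 0.0584 in limma). The part of any of these cell types in the factor and receptor differences was not tested. The epidermal keratins Krt5, Krt14, Krt1 and Krt10 had at least 711 FPKM in every sample, and of 6 keratinocyte markers 3 rose and 2 fell (sums of 21612 to 27160 FPKM in Spry1_KO and 11469 to 13905 FPKM in Control). The Krt5 call was lost without Control replicate 3 and Spry1_KO replicate 2 together (adjusted p 0.0623 in limma). Trp63, 1 of the 2 that fell, overlapped between the groups (adjusted p 0.0491 in limma). It was not called in limma with no filter (0.0858).

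Spry1 itself, the check of the labels, measured 1.06, 1.49 and 1.28 FPKM in Spry1_KO and 25.8, 28.2 and 34.4 FPKM in Control. Some libraries stood apart from the rest. Control replicate 3 separated from the other samples on the second principal component (8.48% of the variance), and Spry1_KO replicate 2 alone showed the Y-linked gene Eif2s3y (19.3 FPKM, against at most 0.203 FPKM in the other 5 samples). Without both libraries the limma log2 fold changes were 1.10 for Kitl, -1.27 for Cxcl12 and -0.86 for Edn1 (adjusted p of 0.00387, 0.00162 and 0.00538), and the limma-voom ones were 3.35 for Nrg1 and 2.64 for Hgf (adjusted p of 0.0016 and 0.00641). Edn2 moved to 0.60 in limma-voom without them and was not called (adjusted p 0.289), and it ranged from -0.22 to 0.35 with 1 sample left out.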

How the data were processed

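Back epidermis of 3 Spry1_KO and 3 Control samples was profiled by RNA-seq. The authors deposited FPKM values for 54532 genes. HISAT2 2.0.5, featureCounts 1.5.0-p3 and GRCm38 are named per the submitters' processing notes. The sources used here do not name the annotation release, strandedness, filters or FPKM formula.

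Exon lengths came from GENCODE M21, which matched 54495 IDs. FPKM times length gave whole reads (tolerance 0.1) for 96.9% to 97.2% of values above 0. The totals the authors scaled by were 88.1% to 95.6% of the recovered sums in Spry1_KO and 98.8% to 103% in Control.

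Genes were tested on log2(FPKM + 1) in limma 3.58.1 under R 4.3.3, with an intensity trend and genotype as the only term, two-sided, for means of at least 1 FPKM, with Benjamini-Hochberg adjustment over all genes. This scale understates the change of low genes. Limma-voom used recovered reads and median-ratio scaling. Both were tested on simulated data, in which far fewer genes changed than were called here. The genes changed there had more Control reads than Hgf, Nrg1 and Edn2 have here, so changes in such low genes were not simulated.

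The factors and lists were chosen with earlier results of these data known. Text genes were all factors and receptors, up to 4 called members of each other list with the lowest p, the 5 nearest to Kitl, and Spry1; a gene that this rule names is not reported here. Ece1, Pcsk1, Pcsk2, Mitf, Tpsab1, Raly, S100b, Fcer1a, Ms4a2, Cpa3, Cma1, Mcpt4, Tpsb2, the Gm loci and Eif2s3y were chosen after their values were seen. The same holds for Trp63. Figures used matplotlib 3.10.9 under Python 3.11.15.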

Additional observations from a re-analysis of the deposited data

How the results depend on the processing

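Kitl and Cxcl12 kept direction and call under every alternative run: a pseudocount of 0.1, no filter, median-ratio, TPM or recovered-read scaling, array weights, the replicate block, limma-voom, and leaving samples out. Leaving out each sample in turn gave log2 fold changes of 1.06 to 1.23 for Kitl and -1.21 to -0.97 for Cxcl12 in limma, and 3.28 to 4.06 for Nrg1 and 2.44 to 2.87 for Hgf in limma-voom, all past the threshold. Over the same limma leave-outs Edn1 ranged from -0.84 to -0.48 and was called only without Control replicate 3 (adjusted p 0.00175). With no filter it was -0.64 and missed the threshold (0.0625). In limma-voom, Edn1 missed it at -0.92, -0.93 and -0.83 without Spry1_KO replicates 1, 2 and 3, and at -0.86 and -0.70 without Control replicates 1 and 2, so 1 factor was lower in place of 2 in each of these 5 fits. Over the same leave-outs in limma, 1 to 2 factors were lower. With no filter 3 factors were higher and 1 lower, where 4000 of all 28340 genes were higher and 3709 lower. Limma-voom called 3 factors higher and 2 lower, where 53.4% of 15481 genes passed. Of the receptors, limma-voom called 5 higher and 5 lower. Of the processing list, 2 were higher with no filter, the replicate block or recovered-read scaling, 1 with TPM scaling and 2 to 4 over the leave-outs. There, 2 were lower with no filter, the replicate block, or without Control replicate 3 and Spry1_KO replicate 2 together, and 1 to 3 over the leave-outs, against 6 with TPM or recovered-read scaling and 5 in limma-voom. Of the other factors, 2 to 5 were higher over the leave-outs. TPM scaling called 2057 of all genes higher. Lrp5, never called, turned to -0.20 with TPM and -0.063 with recovered-read scaling, and ranged from -0.079 to 0.25 over the leave-outs. Leave-outs hold fewer samples and the unfiltered fit more genes; the cause of the other changes was not tested. Replicate numbers do not pair the samples (correlations of same-numbered deviations -0.098, -0.111 and -0.125). With the replicate block, 3216 genes were higher and 2618 lower, and the adjusted p was 0.00619 for Kitl, 0.0287 for Edn1 and 0.00438 for Cxcl12. Among markers, Krt5 and Krt10 were not called with the block (adjusted p 0.0697 and 0.0503) or with no filter (0.339 and 0.201), nor was Ptprc (0.0673 and 0.06), and Col3a1 and Mbp were not called with no filter (0.0532 and 0.0578). Single leave-outs other than those given above also ended calls: Col3a1 without Spry1_KO replicate 2, Control replicate 1 or Control replicate 3, Mbp without Spry1_KO replicate 1 or 2 or Control replicate 3, and Ptprc without Control replicate 1 or 2. Read depth limits Edn2, Edn3, Asip, Pomc and Dkk1.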
